A study of Homo sapiens with 9 samples.

Results

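Genes of sterol and fatty acid synthesis were compared between 3 groups of arrays, all labelled as human IMR32 neuroblastoma cells. 69CHAT cells stably carry the 69-kDa form of the enzyme choline acetyltransferase, 82CHAT cells stably carry its 82-kDa form, and the third group is labelled wild type. The enzyme makes the neurotransmitter acetylcholine. Each group had 3 arrays, called biological replicates in the series' design text, and the labels give no promoter, vector or number of clones for the lines. With a single line for each form, differences by form and by line cannot be told apart. The members were 32 gene symbols chosen by their role in the pathway, with earlier results of these data known. Each was read by the brightest probe set (by mean log2 value over all 9 arrays) that the platform annotation gives to that symbol alone. By this rule 27 of the 32 genes were found, among 11963 genes with such a probe set. CYP51A1 and FADS1 shared all their probe sets with another symbol, and FDFT1, STARD4 and ACSL3 had no probe set under their symbol, so these 5 were not analysed here. The 27 genes had 52 probe sets between them, and 17 had more than 1.

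Cells build cholesterol from acetyl-CoA through mevalonate, isoprenoids, squalene and lanosterol, and build fatty acids from the same acetyl-CoA through malonyl-CoA. Sterol regulatory element-binding proteins (SREBPs), encoded by SREBF1 and SREBF2, are held in the endoplasmic reticulum with SCAP and INSIG proteins when sterols are plentiful. When sterols are scarce they are carried to the Golgi, cut by site proteases, and raise transcription of most enzymes of both pathways. In nerve cells cholesterol and unsaturated fatty acids are major parts of the membranes of neurites and synapses.

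SREBPs commonly act at promoters together with the CCAAT-binding factor NF-Y. The promoters of 5 of the 12 members that were lower on replicate 1 arrays (given further on) are shown as examples. They are RefSeq windows of 300 bases, from 250 before to 50 after an annotated start, written 5′ to 3′. Capitals mark a sterol regulatory element (TCACNCCAC), a CCAAT box (CCAAT) or an E-box (CACGTG), searched on both strands, so ATTGG is a CCAAT box on the other strand. None of these 5 windows holds the E-box.
SREBF2 (GRCh38.p14 chr22:41832855-41833154, plus strand): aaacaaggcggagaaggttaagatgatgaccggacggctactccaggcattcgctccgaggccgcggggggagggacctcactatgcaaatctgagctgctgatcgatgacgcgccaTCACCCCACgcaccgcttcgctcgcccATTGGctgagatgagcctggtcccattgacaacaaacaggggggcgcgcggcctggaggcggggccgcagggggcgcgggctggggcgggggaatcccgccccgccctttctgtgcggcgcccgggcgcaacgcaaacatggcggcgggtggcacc
FDPS (GRCh38.p14 chr1:155308616-155308915, plus strand): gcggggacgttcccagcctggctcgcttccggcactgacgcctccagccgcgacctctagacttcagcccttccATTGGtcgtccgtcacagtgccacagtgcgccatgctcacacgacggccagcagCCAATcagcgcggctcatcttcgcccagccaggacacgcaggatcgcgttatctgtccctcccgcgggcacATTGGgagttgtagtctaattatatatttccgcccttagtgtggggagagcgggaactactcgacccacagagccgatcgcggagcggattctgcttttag
DHCR7 (GRCh38.p14 chr11:71448344-71448643, minus strand): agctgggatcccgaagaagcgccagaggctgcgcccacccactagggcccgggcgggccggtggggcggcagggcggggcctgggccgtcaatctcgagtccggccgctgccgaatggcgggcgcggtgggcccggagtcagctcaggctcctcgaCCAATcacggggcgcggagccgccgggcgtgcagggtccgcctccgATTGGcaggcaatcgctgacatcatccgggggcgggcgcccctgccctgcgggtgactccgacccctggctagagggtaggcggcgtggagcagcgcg
EBP (GRCh38.p14 chrX:48521558-48521857, plus strand): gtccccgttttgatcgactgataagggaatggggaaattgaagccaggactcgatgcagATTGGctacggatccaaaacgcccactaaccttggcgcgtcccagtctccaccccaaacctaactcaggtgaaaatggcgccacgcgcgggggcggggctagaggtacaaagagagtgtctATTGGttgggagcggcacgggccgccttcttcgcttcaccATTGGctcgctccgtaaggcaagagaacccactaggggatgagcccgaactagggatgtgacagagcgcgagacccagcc
SCD (GRCh38.p14 chr10:100346983-100347282, plus strand): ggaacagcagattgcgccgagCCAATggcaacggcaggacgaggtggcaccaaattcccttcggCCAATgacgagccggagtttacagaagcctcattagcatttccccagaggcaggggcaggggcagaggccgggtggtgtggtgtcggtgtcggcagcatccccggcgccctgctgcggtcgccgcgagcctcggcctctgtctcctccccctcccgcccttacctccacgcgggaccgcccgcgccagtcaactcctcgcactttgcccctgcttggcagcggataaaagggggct

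The SREBF2 window held the only exact sterol regulatory element among the members, starting 133 bases upstream of the annotated start, and a CCAAT box. The FDPS and EBP windows held 3 CCAAT boxes each, and those of DHCR7 and SCD held 2 each. Windows were on hand for 24 of the 27 genes, 33 windows in all since a gene can have several starts. A CCAAT box stood in 23 of these 33 windows (69.7%), against 34.6% of all 35116 windows in the table. The sterol regulatory element stood in 1 of 33, against 1.13% of all windows, and the E-box in 5 of 33, against 7.26%. Of the genes lower on replicate 1 that had a window, ELOVL6 alone lacked a CCAAT box. The box also stood at members not called there, among them MVK, MVD and TM7SF2. A match of letters is a description, not a binding site, and its part in the replicate 1 differences was not tested.

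Intensities are the authors' RMA-processed values on a linear scale, and all differences are on the log2 scale. A gene was called where limma's adjusted p over all 22215 probe sets was under 0.05. Array medians ran from 133.7 to 142.6, and all 27 members read at least 95.6 on every array, above 55.9, the lowest lower quartile of any array. The arrays labelled wild type were low in markers of IMR32. MYCN, the oncogene amplified in this line, read 4181 to 5947 in 69CHAT cells and 4301 to 6118 in 82CHAT cells, against 62.5 to 120 on arrays labelled wild type. The summed level of 9 of 10 neuroblastoma and neuronal markers that could be read was 9800 to 16776 in 69CHAT cells, 12503 to 19353 in 82CHAT cells and 1332 to 1619 on arrays labelled wild type. The brightest genes weigh most in such sums. Of the 9 markers, each read by its brightest probe set, 6 were called higher in each line, and GATA2, DBH and STMN2 were not called. A dimmer probe set of GATA2 was called lower in both lines (-0.79 and -0.62, limma adjusted p = 0.0048 and 0.015). For 8 epithelial markers the sums were 503 to 520.0, 473 to 545 and 5911 to 6692, and KRT19, EPCAM, CDH1 and DSP stayed under 55.9 on all arrays of both lines. Of these 8 markers 7 were called lower in each line, all but CLDN4. For 8 mesenchymal markers the sums were 4453 to 7944, 4560 to 6931 and 15283 to 17786. Of these, 5 were called lower in 69CHAT cells and 6 in 82CHAT cells, and CD44 and LGALS1 in neither line. Some dimmer probe sets of CD44 were called lower in both lines, 1 of them at -0.55 and -0.54 (adjusted p = 0.019 and 0.021), and others were not. That the arrays labelled wild type hold IMR32 cells rests on the labels alone. Differences of the lines from these arrays cannot be told apart from differences between kinds of cells. The part of the markers in the differences from wild type was not tested, and in these bulk samples fewer cells of a type and less RNA per cell cannot be told apart.

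**Figure D1:**
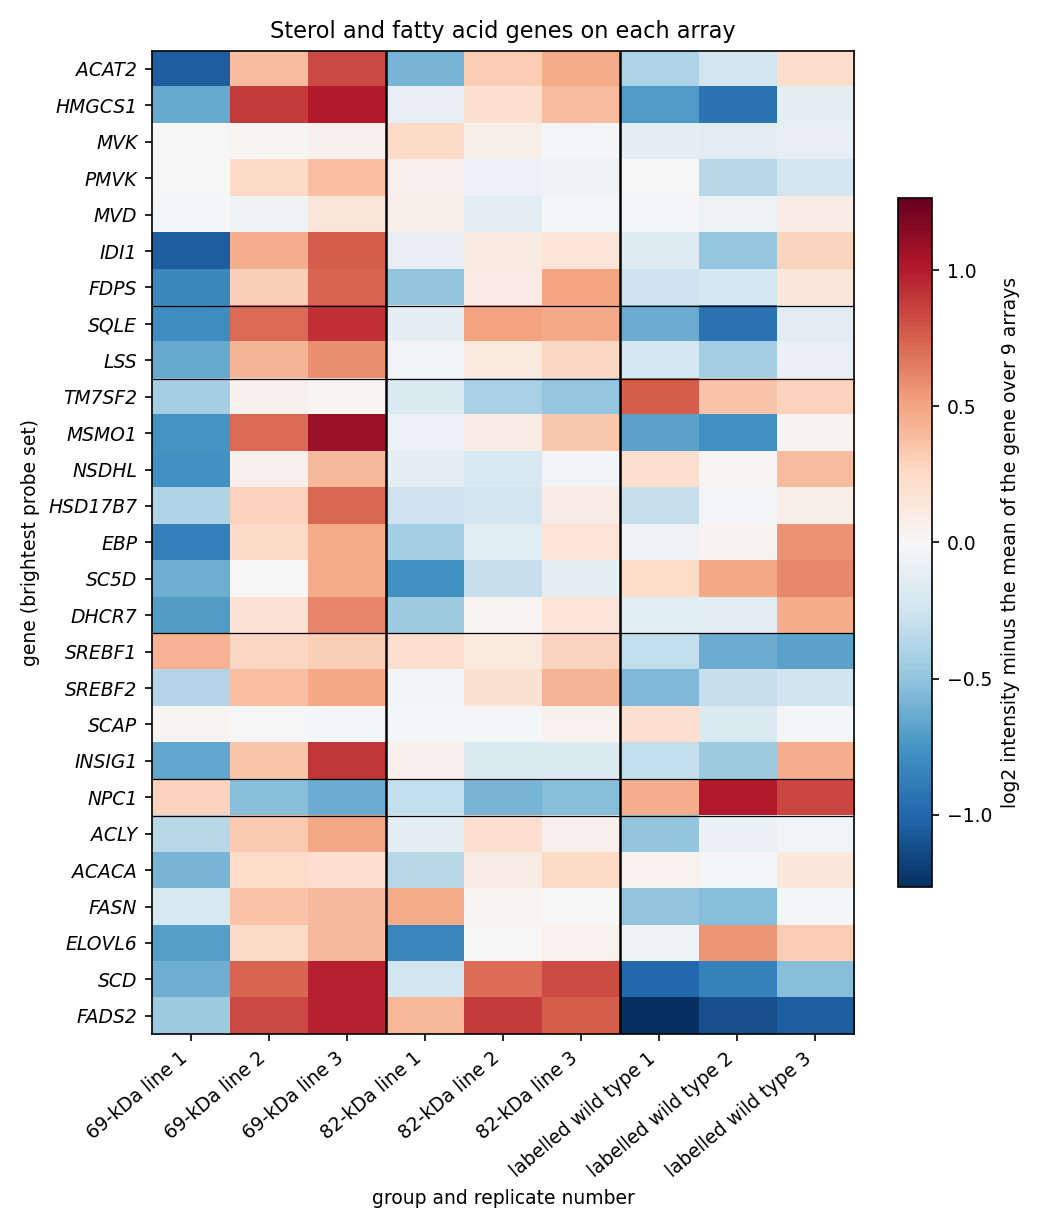
Log2 intensity of each of the 27 genes (rows, in pathway order) on each of the 9 arrays (columns), as the difference from that gene's mean over the 9 arrays. Replicate 1 of 69CHAT cells is blue for most enzymes and replicate 3 of that line, highest of all arrays for 17 genes, is red.

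In 69CHAT cells SREBF1, FADS2 and PMVK were higher than on arrays labelled wild type, and TM7SF2 and NPC1 were lower. That made 5 of 27 genes called, 3 higher and 2 lower, while 26.2% of all probe sets tested were called (10.9% higher, 15.3% lower; 30% with 1 probe set per gene, where 18.1% were lower). In 82CHAT cells SREBF1 and FADS2 were higher and TM7SF2 and NPC1 lower, 4 of 27, against 26.8% of all probe sets (15.7% lower; 31% with 1 probe set per gene). The share of members called was below that of all probe sets in both comparisons, which did not hold in all settings given next. The groups did not overlap at 6 of 27 genes for 69CHAT cells (43.7% of all probe sets) and at 13 of 27 for 82CHAT cells (42.3%). The median difference of the members was 0.19 in 69CHAT cells and 0.18 in 82CHAT cells, beside 0.06 for all probe sets in each. Without replicate 1 of 69CHAT cells the first median was 0.61 and without their replicate 3 it was 0.01, and the second ran from 0.04 without replicate 3 of 82CHAT cells to 0.28 without replicate 3 of wild type. The comparisons share the 3 arrays labelled wild type. With the replicate number as a block, 10 members were called in 69CHAT cells, 7 higher and 3 lower (36.5% of all probe sets, 19.9% lower). In 82CHAT cells 8 were called, 4 higher and 4 lower (38.2% of all probe sets, 17.9% higher and 20.3% lower). In replicates 2 and 3 alone, 14 (12 higher, 2 lower) and 11 (7 higher, 4 lower) were called, against 39% and 39.6% of all probe sets. Of all probe sets 18.5% were higher and 20.5% lower there in 69CHAT cells, and 19.4% higher and 20.2% lower in 82CHAT cells. The share of members was then above that of all probe sets in 69CHAT cells and near it in 82CHAT cells. With the block it was near it in 69CHAT cells and below it in 82CHAT cells.

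**Figure D2:**
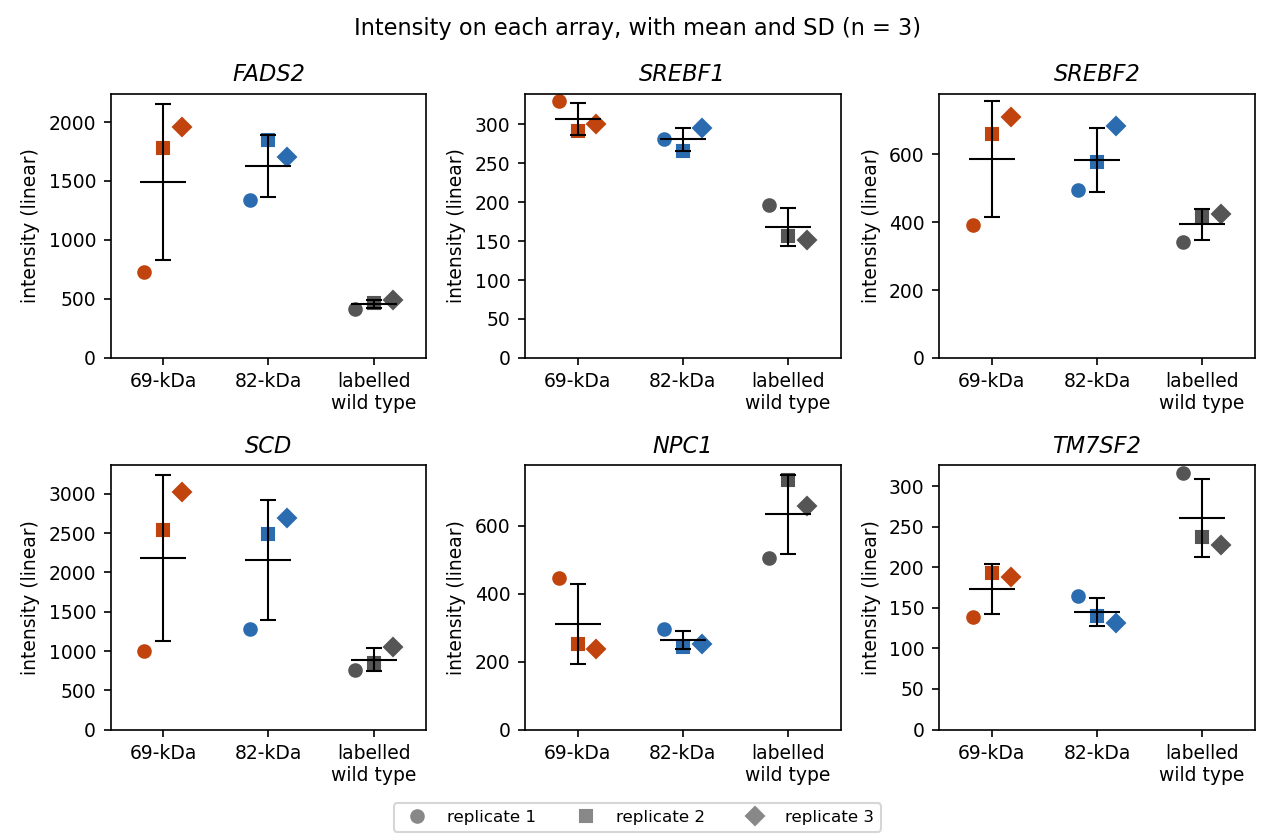
Linear intensity of 6 genes on each array, by group and replicate number, with the mean and SD of the 3 arrays as a line and bar. FADS2 and SREBF1 are higher and NPC1 and TM7SF2 lower on every array of both lines than on arrays labelled wild type, and SCD is far lower on replicate 1 of each line than on replicates 2 and 3.

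Among the regulators, SREBF1 read 330, 291 and 300.1 in 69CHAT cells (replicates 1, 2 and 3 throughout) and 281, 266 and 295 in 82CHAT cells, against 196, 157 and 152 on arrays labelled wild type. The groups did not overlap, and all 3 arrays of each line were close together. It was 1.84-fold higher in 69CHAT cells (log2 difference 0.88, SE 0.11, limma adjusted p = 0.00046) and 1.68-fold higher in 82CHAT cells (0.75, SE 0.11, adjusted p = 0.0011). SREBF2 read 392, 659 and 711 in 69CHAT cells and 494, 576 and 683 in 82CHAT cells, against 342, 414 and 425 on arrays labelled wild type. Replicate 1 was lowest in each group, and 1 array of 69CHAT cells fell within the range of the arrays labelled wild type. The differences of 0.54 and 0.56 (SE 0.23 each) did not pass (adjusted p = 0.12 and 0.10), and passed with the replicate block (adjusted p = 0.012 and 0.0097). Its second probe set (suffix _s_at) was called in both lines, at 0.67 (adjusted p = 0.0028) and 0.70 (adjusted p = 0.0023).

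SCAP, the sterol-sensing escort of SREBPs, read 783 to 807 in 69CHAT cells and 779 to 816 in 82CHAT cells, against 702 to 916 on arrays labelled wild type, with adjusted p = 0.998 and 0.987. INSIG1, which holds SCAP in the endoplasmic reticulum and is itself an SREBP target, read 360, 722 and 1059 in 69CHAT cells and 591, 500 and 500 in 82CHAT cells, against 456, 416 and 776 on arrays labelled wild type. The groups overlapped, and replicate 1 was the lowest and replicate 3 the highest array of 69CHAT cells. The differences of 0.30 (SE 0.37, adjusted p = 0.60) and 0.00 (adjusted p = 0.996) did not pass.

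Of the fatty acid genes, FADS2, a desaturase of polyunsaturated fatty acid synthesis, had the largest difference among the members in either line. It read 731, 1780 and 1961 in 69CHAT cells and 1339, 1848 and 1702 in 82CHAT cells, against 417, 463 and 488 on arrays labelled wild type. Every array of the lines was above every array labelled wild type, and replicate 1 was the lowest of each line. It was 3.00-fold higher in 69CHAT cells (log2 difference 1.59, SE 0.33, adjusted p = 0.0072) and 3.55-fold higher in 82CHAT cells (1.83, SE 0.33, adjusted p = 0.0035).

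SCD, the stearoyl-CoA desaturase that makes monounsaturated fatty acids, read 995, 2536 and 3019 in 69CHAT cells and 1285, 2484 and 2698 in 82CHAT cells, against 765, 845 and 1049 on arrays labelled wild type. Only replicate 1 of 69CHAT cells lay within the range of the arrays labelled wild type. By this probe set the differences of 1.16 and 1.22 (SE 0.43 each) missed the threshold (adjusted p = 0.080 and 0.066), and they passed with the replicate block (adjusted p = 0.0060 and 0.0048). The other 3 probe sets of SCD were called higher in both lines, by 0.86 to 1.36 in 69CHAT cells and by 1.12 to 1.61 in 82CHAT cells. Their adjusted p ran from 0.0031 to 0.034 in 69CHAT cells and from 0.00072 to 0.015 in 82CHAT cells. The calls of SCD thus rest on the choice of probe set.

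ACLY, which makes cytosolic acetyl-CoA from citrate, read 3927, 6279 and 6985 in 69CHAT cells and 4570, 5768 and 5230 in 82CHAT cells, against 3523, 4715 and 4890 on arrays labelled wild type. The ranges overlapped, and the difference of 0.36 in 69CHAT cells did not pass (SE 0.22, adjusted p = 0.29; 0.046 with the replicate block). Another probe set of ACLY was called there at 0.68 (adjusted p = 0.026), and its remaining one was at 0.60 (adjusted p = 0.18). FASN, the fatty acid synthase, differed by 0.54 and 0.52 (adjusted p = 0.10 and 0.11). ACACA, which makes malonyl-CoA, differed by -0.10 and -0.06 (adjusted p = 0.79 and 0.87). ELOVL6, an elongase of saturated fatty acids, read 178, 340.0 and 382 in 69CHAT cells and 162, 289 and 297 in 82CHAT cells, against 279, 423 and 358 on arrays labelled wild type. Its differences were -0.29 (adjusted p = 0.57) and -0.54 (adjusted p = 0.28), and the second passed with the replicate block (adjusted p = 0.017).

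The 2 genes called lower in each line were NPC1 and TM7SF2. NPC1, which exports cholesterol from lysosomes, read 447.5, 252 and 237 in 69CHAT cells and 295, 244 and 253 in 82CHAT cells, against 505, 735 and 660 on arrays labelled wild type. No array of the lines reached the lowest array labelled wild type, though replicate 1 of 69CHAT cells came near it. NPC1 was 2.09-fold lower in 69CHAT cells (-1.07, SE 0.24, adjusted p = 0.011) and 2.38-fold lower in 82CHAT cells (-1.25, SE 0.24, adjusted p = 0.0050). Its other probe set read 28.8 to 32.1 on all 9 arrays, below the lower quartile of each.

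TM7SF2, a sterol reductase acting after lanosterol, read 138, 193 and 188 in 69CHAT cells and 165, 139 and 132 in 82CHAT cells, against 316, 238 and 228 on arrays labelled wild type. The groups did not overlap. It was 1.504-fold lower in 69CHAT cells (-0.59, SE 0.17, adjusted p = 0.034) and 1.78-fold lower in 82CHAT cells (-0.83, SE 0.17, adjusted p = 0.0067). The call in 69CHAT cells did not survive leaving out any of 5 arrays (replicates 1 and 3 of 69CHAT cells, replicate 2 of 82CHAT cells, or replicate 1 or 2 of wild type), with adjusted p up to 0.11.

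Of the 7 mevalonate genes only PMVK, phosphomevalonate kinase, was called, and only in 69CHAT cells. It read 282, 331 and 366 in that line and 294, 266 and 272 in 82CHAT cells, against 279, 220.2 and 239 on arrays labelled wild type. Replicate 1 of 69CHAT cells exceeded the highest array labelled wild type by little. The difference was 0.41 in 69CHAT cells (SE 0.12, adjusted p = 0.040) and 0.18 in 82CHAT cells (adjusted p = 0.33). Leaving out replicate 2 or 3 of any group, 6 arrays in all, ended the call (adjusted p up to 0.14). The difference between the lines did not pass for this gene either.

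HMGCS1, the cytosolic HMG-CoA synthase that starts the mevalonate route, read 206, 589 and 641 in 69CHAT cells and 298, 367 and 422 in 82CHAT cells, against 194, 167 and 295 on arrays labelled wild type. It differed by 1.01 in 69CHAT cells (SE 0.41, adjusted p = 0.12; 0.036 with the replicate block) and by 0.76 in 82CHAT cells (adjusted p = 0.23). Its dimmer probe set differed by 0.15 and 0.03. ACAT2, which condenses acetyl-CoA, IDI1, an isomerase of isoprenoid units, and FDPS, farnesyl diphosphate synthase, each differed by 0.15 to 0.20 in the lines. In 69CHAT cells these values rest on single arrays: without replicate 1 of that line they were 0.74, 0.73 (adjusted p = 0.039 for IDI1) and 0.63, and without its replicate 3 they were -0.19, -0.17 and -0.14. ACAT2 was called in 69CHAT cells in replicates 2 and 3 alone (0.61, adjusted p = 0.046). MVK, mevalonate kinase, differed by 0.14 and 0.22, and MVD, the decarboxylase, by 0.03 and -0.03.

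SQLE, squalene epoxidase and a rate-limiting step, read 946, 2677 and 3085 in 69CHAT cells and 1494, 2329 and 2272 in 82CHAT cells, against 1054, 857 and 1473 on arrays labelled wild type. Replicate 1 of 69CHAT cells lay within the range of the arrays labelled wild type and the other arrays of the lines lay above it. SQLE differed by 0.85 and 0.86 (SE 0.43 each, adjusted p = 0.20 and 0.19). In replicates 2 and 3 alone it was called in both lines, at 1.35 (adjusted p = 0.0040) and 1.03 (adjusted p = 0.013). LSS, lanosterol synthase, was called there too, at 0.77 (adjusted p = 0.0031) and 0.45 (adjusted p = 0.028), and over all arrays it differed by 0.37 in each line (adjusted p = 0.395 and 0.388).

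Among the enzymes from lanosterol to cholesterol, MSMO1, which removes sterol methyl groups, differed by 0.82 and 0.59 (adjusted p = 0.22 and 0.36). In replicates 2 and 3 alone MSMO1 was called in 69CHAT cells at 1.27 (adjusted p = 0.0089). SC5D, a sterol desaturase, read 408, 623 and 865 in 69CHAT cells and 369, 514 and 579 in 82CHAT cells, against 738, 879 and 952 on arrays labelled wild type. The 82CHAT arrays lay below all arrays labelled wild type and those of 69CHAT cells overlapped them. SC5D differed by -0.50 in 69CHAT cells (adjusted p = 0.23; 0.021 with the replicate block) and by -0.83 in 82CHAT cells (SE 0.27, adjusted p = 0.052; 0.0022 with the replicate block). NSDHL and HSD17B7, which act in removing the same methyl groups, EBP, a sterol isomerase, and DHCR7, the last step of a branch of the pathway, differed by -0.32 to 0.28 in the lines, with no call.

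**Figure D3:**
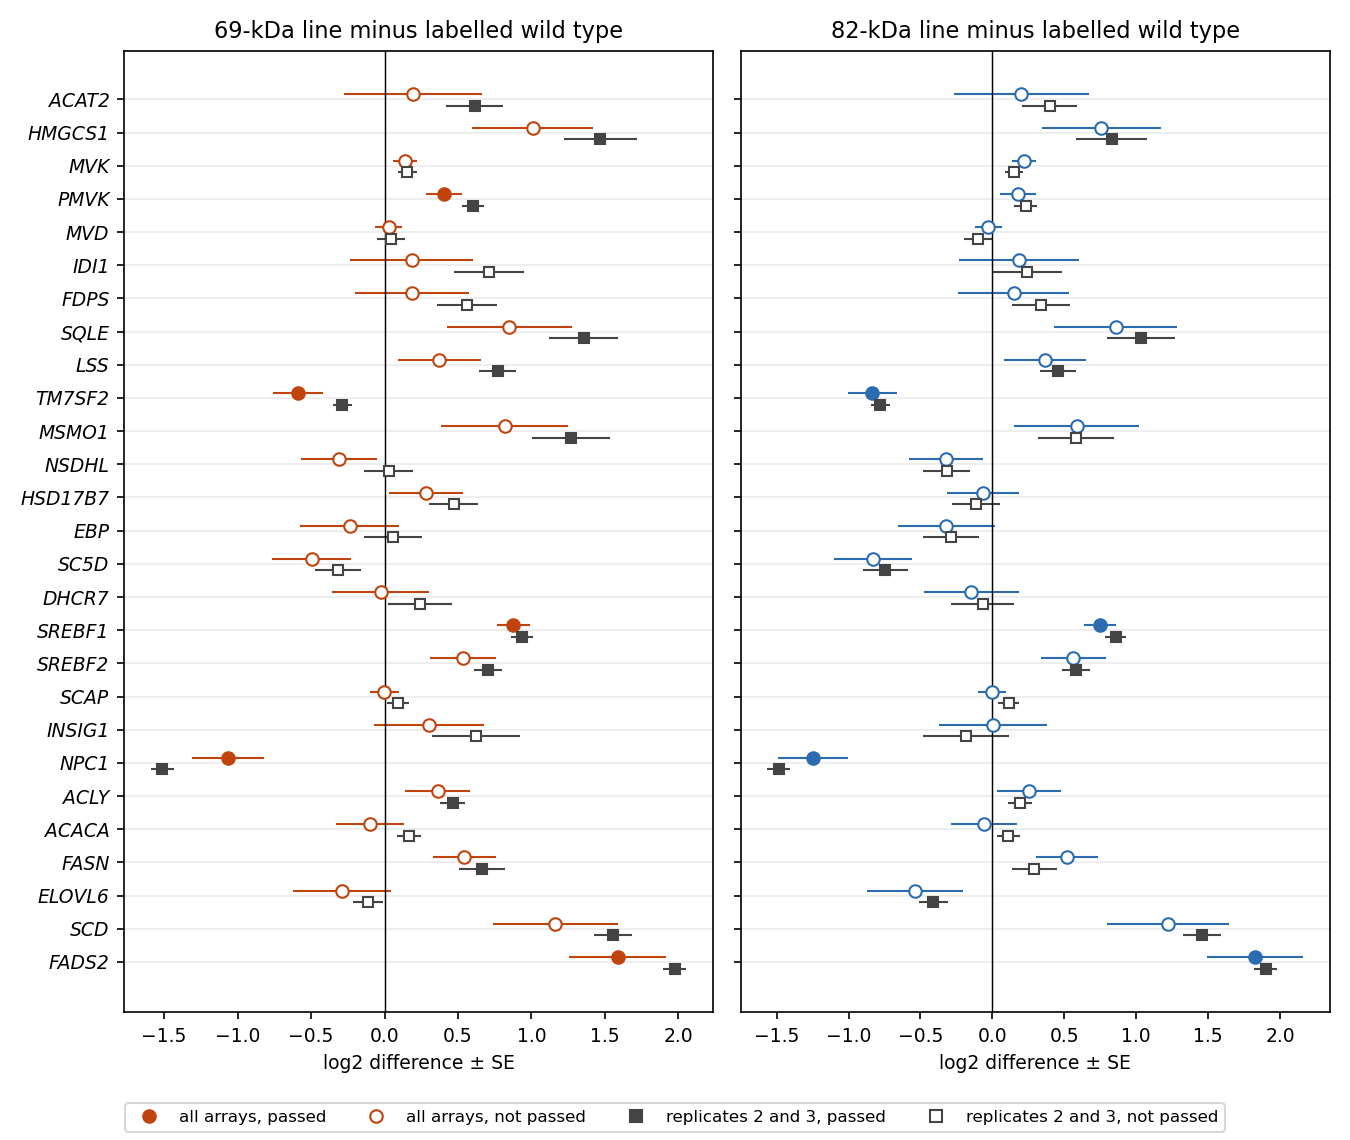
Log2 difference of each line from the arrays labelled wild type, with its SE from limma, for the 27 genes. Circles use all 9 arrays and squares replicates 2 and 3 only, and filled symbols have an adjusted p under 0.05. SQLE, LSS, HMGCS1, SREBF2 and SCD have filled squares in both panels and open circles.

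The lines were not told apart at these genes. Over all 9 arrays 0 of 27 members and 0% of all probe sets were called between 82CHAT and 69CHAT cells by limma. At an unadjusted p under 0.05 the counts were 0 members and 733 probe sets (3.3%). The members' differences (82-kDa minus 69-kDa) ran from -0.35 for HSD17B7 to 0.24 for FADS2. Of the 27, 7 were positive and 74.1% negative, beside 48.5% negative of all probe sets. Their median was -0.06 (-0.40 without replicate 1 of 69CHAT cells, 0.09 without replicate 3 of that line). The 95% interval for FADS2 was -0.52 to 0.998 and that for HSD17B7 was -0.92 to 0.22, and both intervals include 0. Some members had wider intervals, among them ACAT2 (-1.06 to 1.07) and MSMO1 (-1.22 to 0.76). Differences of 2-fold between the lines lie within these. In replicates 2 and 3 alone TM7SF2 was called, lower in 82CHAT cells by 0.49 on the log2 scale (SE 0.065, adjusted p = 0.020), where 2.04% of all probe sets were called (0.981% higher, 1.06% lower).

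Replicate 1 arrays were lower than replicates 2 and 3 at 12 of 27 members and higher at 0. The fit used all 9 arrays, with group means and 1 shared term for replicate 1. A call by this term need not hold in each group. Of all probe sets 14.6% were lower and 17.2% higher (31.8% in all, 33.9% with 1 probe set per gene). Since the list was chosen with earlier results of these data known, its count beside these shares is a description only. The median difference of the members was -0.48, beside 0.04 for all probe sets, and -0.27 without replicate 1 of 69CHAT cells. The 12 genes were ACAT2 and FDPS of the mevalonate steps, HSD17B7, EBP, SC5D and DHCR7 of the late sterol steps, the regulator SREBF2, and the fatty acid genes ACLY, ACACA, ELOVL6, SCD and FADS2. The labels do not say what a replicate number stands for.

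ELOVL6, whose array values are given above, had the smallest adjusted p, at -0.78 (SE 0.11, limma adjusted p = 0.0024), and its dimmer probe set gave -0.63 (adjusted p = 0.0092). ACLY was lower by 0.49 on the log2 scale (-0.49, SE 0.09, adjusted p = 0.0078). SCD stood at -0.93 (SE 0.19, adjusted p = 0.010), but its other 3 probe sets at -0.34 to -0.10, none called. SREBF2 stood at -0.48 (adjusted p = 0.012), and its second probe set at 0.02 (adjusted p = 0.88). SC5D stood at -0.57 (adjusted p = 0.014) and FADS2 at -0.65 (adjusted p = 0.033). The call of SC5D was lost without replicate 1 of 69CHAT cells (-0.44, adjusted p = 0.064). That of FADS2 was lost without any of 5 arrays, replicates 2 and 3 of 69CHAT cells and all 3 of 82CHAT cells (adjusted p up to 0.069), and its difference was -0.30 without replicate 1 of 69CHAT cells. Replicate 1 was the lowest array of each of the 3 groups for ELOVL6, ACLY, SCD, SREBF2, SC5D and FADS2.

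ACAT2 had the largest difference of the 12. It read 646 in replicate 1 of 69CHAT cells, against 1737 and 2375 in replicates 2 and 3, and 883 in replicate 1 of 82CHAT cells, against 1659 and 1843. On arrays labelled wild type it read 1012, against 1133 and 1554. The difference was -1.01 (SE 0.22, adjusted p = 0.013). FDPS read 778 against 1689 and 2277 in 69CHAT cells, 969 against 1467 and 1935 in 82CHAT cells, and 1140 against 1171 and 1511 on arrays labelled wild type (-0.78, SE 0.21, adjusted p = 0.024). The call of FDPS was lost without replicate 1 of 69CHAT cells or replicate 1 or 3 of 82CHAT cells (adjusted p up to 0.11). In both genes replicate 1 was lowest in each group and the gap was smallest on arrays labelled wild type.

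DHCR7 read 221 against 411 and 554 in 69CHAT cells, 264 against 368 and 404 in 82CHAT cells, and 326 against 328 and 498 on arrays labelled wild type (-0.66, SE 0.18, adjusted p = 0.030). EBP read 640 against 1375 and 1619 in 69CHAT cells, 867 against 1051 and 1317 in 82CHAT cells, and 1134 against 1192 and 1726 on arrays labelled wild type (-0.67, SE 0.19, adjusted p = 0.030). A second probe set of EBP gave -0.68 (adjusted p = 0.035) and its remaining one 0.33 (adjusted p = 0.28). HSD17B7 stood at -0.46 (adjusted p = 0.048), a call lost without any of 8 arrays (all but replicate 2 of 82CHAT cells). ACACA stood at -0.45 (adjusted p = 0.033), while its dimmer probe set was called the other way, at 0.34 (adjusted p = 0.0066). By its brightest probe set the shift of ACACA was -0.81 in 69CHAT cells, -0.52 in 82CHAT cells and -0.01 on arrays labelled wild type. The calls of DHCR7, EBP and ACACA were each lost without any of 6 arrays (adjusted p up to 0.14, 0.13 and 0.15), and without replicate 1 of 69CHAT cells their differences were -0.43, -0.39 and -0.27.

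The median shift was farthest from 0 in 69CHAT cells. There replicate 1 was below the mean of replicates 2 and 3 at 24 of 27 members (43% of all probe sets), with a median of -0.997 (all probe sets 0.04). In 82CHAT cells it was below at 19 (44.1% of all probe sets), with a median of -0.27 (0.04). On arrays labelled wild type it was below at 21 (42.8%), with a median of -0.22 (0.03). MSMO1, IDI1, ACAT2, SQLE and HMGCS1 were each lower by 1.58 or more on the log2 scale in replicate 1 of 69CHAT cells (-1.66, -1.65, -1.65, -1.60 and -1.58). For the same 5 genes in that order the shift was -0.29, -0.24, -0.99, -0.62 and -0.40 in 82CHAT cells and -0.31, -0.06, -0.39, -0.09 and -0.19 on arrays labelled wild type. None of the 5 passed limma's test of the shift of 69CHAT cells against that of wild type (adjusted p = 0.096 to 0.16). NPC1 moved the other way, 0.87 higher in replicate 1 of 69CHAT cells and 0.25 higher in that of 82CHAT cells, against -0.46 on arrays labelled wild type.

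**Figure D4:**
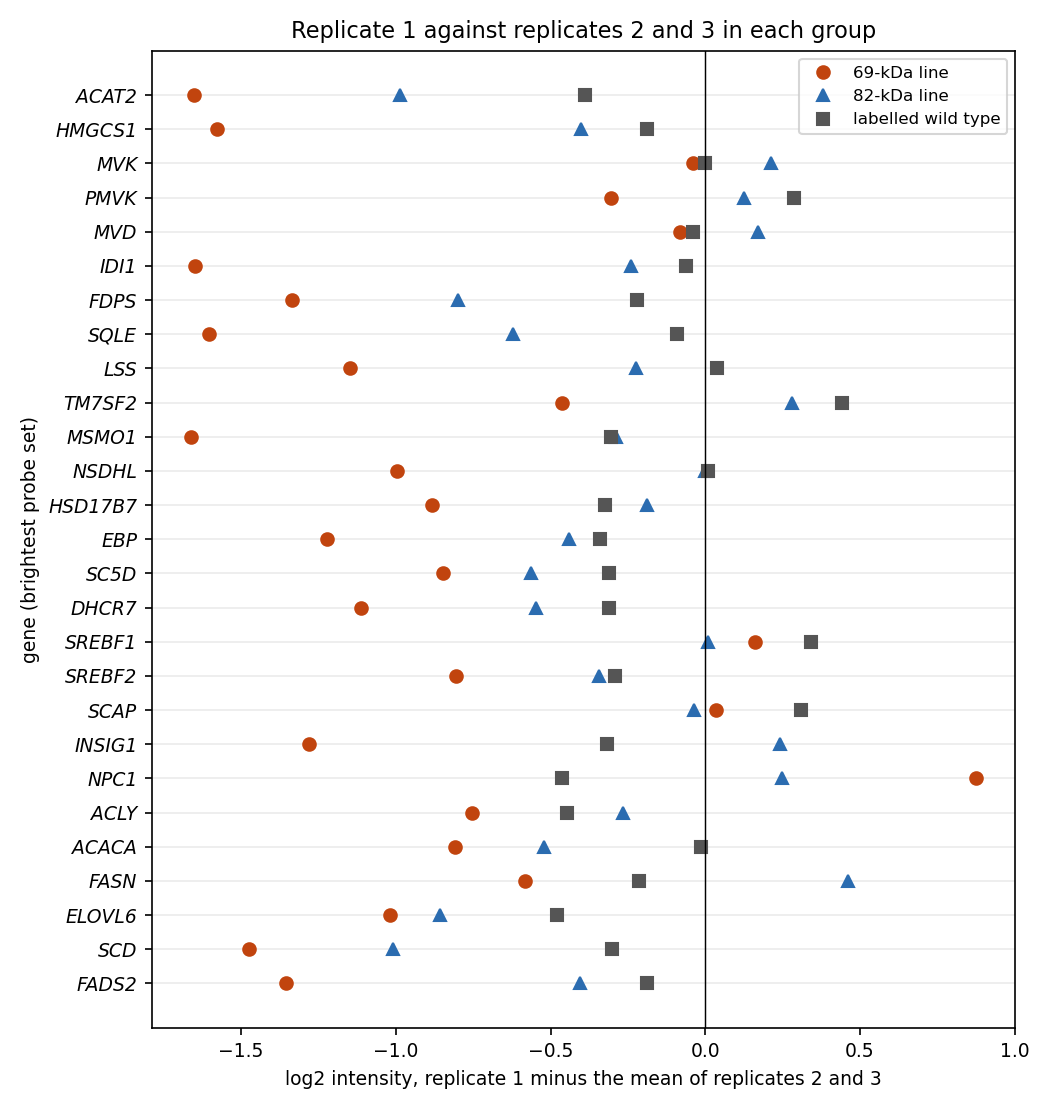
Log2 intensity of replicate 1 minus the mean of replicates 2 and 3 in each group, for the 27 genes; each point is 1 array against 2. The points of 69CHAT cells lie farthest left for most genes, down to -1.66 for MSMO1, and NPC1 of that line lies at 0.87.

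Set between groups, the shift of 69CHAT cells passed limma's test against that of the arrays labelled wild type at 6 members (3.49% of all probe sets), that of 82CHAT cells from wild type at 1 (4.48%), and that of 82CHAT cells from 69CHAT cells at 2 (5.12%). This test takes its error from replicates 2 and 3 alone, and each replicate 1 is a single array, so a shift of the group and 1 deviating array cannot be told apart. With the 6 arrays of the lines only, 13 members were lower in replicate 1 and NPC1 was higher, against 16.3% and 16.6% of all probe sets. Left out in turn, 5 arrays kept the count of 12 within a factor of 1.5. The count was 7 without replicate 1 of 69CHAT cells (6 lower, and TM7SF2 higher), 7 without its replicate 2, 6 without replicate 1 of 82CHAT cells and 6 without its replicate 3.

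Some measures of the arrays moved with the replicate number as well. For ACTB the 3' over 5' ratio was 0.703 in 69CHAT replicate 1 and 0.709 in 82CHAT replicate 1, while the other 7 arrays ran from 0.831 to 1.08, with wild-type replicate 1 at 0.847. The spiked bioD control (5' probe set) read 193 to 259 for replicate 1, but 460 to 739 for replicates 2 and 3. Other spiked controls did not all part this way, and the 5' probe set of bioB read 125 to 159 for replicate 1 and 100.4 to 140.5 for replicates 2 and 3. The same ratio for GAPDH was 0.950 to 1.07 on all arrays. Their part in the shift of the sterol and fatty acid genes was not tested.

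Other genes of lipid handling, 48 chosen by role, of which 40 had a probe set, were fitted in the same way. In 69CHAT cells 4 were higher and 9 lower, and in 82CHAT cells 5 were higher and 11 lower, with medians of -0.08 and -0.09. With 1 probe set per gene, 12% of all genes were higher and 18.1% lower in 69CHAT cells, and 12.1% higher and 18.9% lower in 82CHAT cells, so nothing is read from these counts. NPC2, the lysosomal partner of NPC1, read 224 to 277 in 69CHAT cells and 258 to 281 in 82CHAT cells, against 1787 to 1924 on arrays labelled wild type. It was 7.45-fold and 6.99-fold lower (adjusted p = 1.8e-07 and 2.2e-07). ME1, the malic enzyme that supplies NADPH for fatty acid synthesis, read 47.6 to 82.1 in 69CHAT cells and 44.7 to 71.8 in 82CHAT cells, against 703 to 846 on arrays labelled wild type, and was lower in both lines (adjusted p = 7.4e-06 and 6.7e-06). No fold is given, since its values in the lines reach below the lower quartile of 55.9. INSIG2, a relative of INSIG1, was 2.29-fold and 2.58-fold lower (adjusted p = 0.00010 and 4.5e-05). MBTPS1, a protease that cuts SREBPs, read 241, 358 and 359 in 69CHAT cells and 244, 323 and 354 in 82CHAT cells, against 806, 970 and 907.5 on arrays labelled wild type. It was 2.84-fold and 2.94-fold lower (adjusted p = 0.00045 and 0.00037). Of 6 measured regulators of SREBPs in this list, 4 were lower in each line and 0 higher, the others being MBTPS2 and ERLIN2, beside 18.1% and 18.9% of all genes lower. These 2 genes were named after their values were seen, and nothing is read from this count either. Of 21 measured fatty acid enzymes in the list, 3 were higher and 2 lower in 69CHAT cells, and 4 and 2 in 82CHAT cells.

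Between replicate 1 and the rest, 3 of these 40 genes were higher and 12 lower, beside 17.3% of all genes higher and 16.6% lower. ACSL4, a fatty acid activating enzyme, was lower at -0.86 (adjusted p = 0.0035), OSBPL8, a lipid transfer protein, at -0.65 (adjusted p = 0.0057), MBTPS1 at -0.42 (adjusted p = 0.0063) and ELOVL4, an elongase of very long fatty acids, at -0.61 (adjusted p = 0.010).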

How the data were processed

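RNA of 9 single-channel arrays was measured, 3 for each of 3 groups, with groups and replicate numbers taken from the sample titles. Deposited values were linear intensities from RMA, per the submitters' processing notes, and its version is not given in the sources used here. They ran from 14.9 to 21486. RMA's background step can understate changes of dim genes. The number of arrays limits the precision. The table held 22283 probe sets, of which 68 controls were not tested. A platform annotation gave 19065 probe sets 1 symbol, 1043 several and 2107 none. No pair of arrays was identical (0), and columns of other series numbered 0.

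The log2 intensities entered limma 3.58.1 under R 4.3.3 (group means over all 9 arrays, eBayes, two-sided tests), with Benjamini-Hochberg adjustment over 22215 probe sets and a threshold of 0.05. Replicate 1 was compared with replicates 2 and 3 by a term added to the group means, and between groups by a term for each group. The fit was tested on simulated data. Nothing says that the replicates came from separate cultures beyond the design text calling them biological, so p-values measure the spread between these arrays.

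Same-numbered arrays of different groups deviated together from their group means (correlation 0.28 to 0.57 over probe sets in 9 pairs). Replicates 2 and 3 of different groups did so too, at 0.21 to 0.48. Replicate 1 went against them, at -0.59 to -0.28. Deviations from a group mean cancel out within the group, so this opposite sign largely follows from the agreement between replicate 1 arrays. The pairing comes from the numbers in the titles. Full array values are given for members called in a group comparison, for the 10 members with the smallest adjusted p between replicate 1 and the rest, and for SREBF1, SREBF2 and INSIG1. Of the other lipid genes, up to 4 per comparison with the smallest adjusted p are named. HMGCS1 and SQLE were added after their values were seen, as were MBTPS2 and ERLIN2. Members and lists were chosen with earlier results of these data known. Promoter windows are from RefSeq (GRCh38.p14). Alternatives were the scaling, pseudocount, filters, probe set, variance settings, array weights, block, threshold and arrays used.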

Additional observations from a re-analysis of the deposited data

Results flagged for a closer look

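The shift of replicate 1 against replicates 2 and 3 passed limma's test of a difference between groups at 6 members (adjusted p under 0.05 over all probe sets). Each group has 1 array of replicate 1, so the test cannot tell a shift of the group from 1 deviating array, and its error comes from replicates 2 and 3 alone. Against the shift on arrays labelled wild type, that of 69CHAT cells was lower for LSS by 1.19 on the log2 scale (-1.19, adjusted p = 0.043), for SCD (-1.17, adjusted p = 0.048), for FADS2 (-1.17, adjusted p = 0.015), for TM7SF2 (-0.91, adjusted p = 0.016) and for ACACA (-0.79, adjusted p = 0.041). For NPC1 it was higher, by 1.34 (adjusted p = 0.0090). The shift of 82CHAT cells differed from that on arrays labelled wild type for NPC1, by 0.71 (adjusted p = 0.044). The shift of 82CHAT cells differed from that of 69CHAT cells for TM7SF2, by 0.74 (adjusted p = 0.022), and for FADS2, by 0.95 (adjusted p = 0.019). At a threshold of 0.01 NPC1 alone remained, in the first comparison. No other probe set of LSS, SCD, NPC1 or ACACA passed these tests.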

How the results depend on the processing

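Member counts were recomputed under each alternative. The share of all probe sets called is not given for array weights, quantile normalization, left-out arrays, other thresholds or filters. Nothing is read from how the counts under those settings compare with all probe sets. For 69CHAT cells against wild type (5 called) the count was 2 without probe sets ending in _x_at or _s_at (16 members then had one), 2 at a threshold of 0.01, 2 at 2-fold or more, 3 with the 6 arrays compared, 10 with the replicate block, 14 in replicates 2 and 3 and 16 with array weights. Leaving out an array gave 3 to 14, the 14 without replicate 1 of 69CHAT cells, and 3 without its replicate 3, without replicate 2 of 82CHAT cells or without replicate 2 of wild type. For 82CHAT cells (4 called) it was 2 without those probe sets, 2 at 2-fold or more, 7 after quantile normalization, 8 with the replicate block, 8 with the 6 arrays compared, 11 in replicates 2 and 3 and 17 with array weights, and 4 to 10 without an array, the 10 without replicate 1 of 69CHAT cells. Between the lines (0 called) it was 1 in replicates 2 and 3 and 22 with array weights, and 0 under the rest, each left-out array included. The weights did not converge and gave 59.4 to 69CHAT replicate 2 and 61.1 to 82CHAT replicate 2, against 0.0918 to 0.749 elsewhere. For replicate 1 against the rest (12 called), 7 of the 16 members left without those probe sets were called, with HMGCS1 and INSIG1 gained. The count was 6 with array weights, 2 at a threshold of 0.01, 1 at 2-fold or more, and 6 to 15 without an array. After quantile normalization it was 8, with SREBF1 and SCAP called higher. For the shift compared between groups (6 called) it was 1 at a threshold of 0.01. The cause of these moves was not tested.

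Of single values, 2356 kept their call or lack of one, 131 gained and 97 lost a call, and 10 turned sign where a call was involved. Values that turned sign with no call before or after are among the 2356. With array weights SQLE (-0.20), SREBF2 (-0.19) and ACACA (-0.14) turned between the lines. By another probe set NPC1 was at 0.0091 and 0.0012 in 69CHAT and 82CHAT cells, and in replicate 1 against the rest SC5D was at 0.17 (also without _s_at probe sets), SREBF2 at 0.022, EBP at 0.33 and ACACA at 0.34. SREBF1, FADS2 and NPC1 kept their calls in both lines, and TM7SF2 in 82CHAT cells, whichever array was left out, and so did ELOVL6, ACLY, SCD, SREBF2 and ACAT2 for replicate 1. With the replicate block SC5D, SREBF2 and SCD were gained in both lines, HMGCS1 and ACLY in 69CHAT cells and ELOVL6 in 82CHAT cells, and no other call changed.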

Other observations

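Replicates 2 and 3 also parted at these genes, in the same direction in every group. Replicate 3 exceeded replicate 2 at 23 of 27 members in 69CHAT cells, at 21 in 82CHAT cells and at 23 on arrays labelled wild type. Of all 22215 probe sets it did so at 10530, 9981 and 10951 in the same order. The median differences (replicate 3 minus replicate 2) were 0.17, 0.12 and 0.16, while over all probe sets they were 0.00 in each group. On arrays labelled wild type INSIG1 was 0.90 higher in replicate 3 than in replicate 2, HMGCS1 0.82, MSMO1 0.80, SQLE 0.78 and IDI1 0.77. In 69CHAT cells INSIG1 was 0.55 higher, SC5D 0.47 and ACAT2 0.45. These are differences between single arrays and were not tested.

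The array with the highest value of all 9 was replicate 3 of 69CHAT cells for 17 of 27 members, and for 7.77% of all probe sets. The array with the lowest value was replicate 1 of 69CHAT cells for 10 members (11.4% of all probe sets) and replicate 2 of wild type for 7 (16.9%). The median intensity of the members was 453, 722 and 968 on replicates 1, 2 and 3 of 69CHAT cells, and 591, 610.1 and 683 in 82CHAT cells, against 505, 593 and 660 on arrays labelled wild type. The highest and the lowest of these medians thus belonged to the same line.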
